A study of Homo sapiens with 4 samples.

Results

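The genes described here are 53 human genes for the origin and fork steps of DNA replication, chosen by name and matched by gene ID, out of 61852 genes in each deposited table. All 53 were found, and all 53 passed the filter on low counts, so they are 53 of 15965 genes tested. Sequencing of poly(A) RNA measured them in 4 libraries made from H1299, an established line of human non-small-cell lung carcinoma whose genotype is given as p53-/-. In 2 libraries the cells expressed CASM34, which the series describes as a mutant of p53, and in 2 they expressed wild-type p53 (p53WT). The title of the series concerns cancer-associated synonymous mutations and the p53 response to DNA damage. The labels name no DNA-damaging treatment. How p53 was introduced, from which promoter and whether in clones is not given in the sources used here. Cells that lack p53 altogether were not analysed here. The comparison asks how cells with CASM34 differ from cells with p53WT. The labels do not state whether libraries of 1 group stem from separate cultures, so p-values reflect no more than how far these libraries differ, which may be a technical spread.

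Replication starts at origins, where the origin recognition complex (ORC), CDC6 and CDT1 load the ring of MCM2 to MCM7 onto DNA before S phase. The kinase CDC7 with its partner DBF4, together with CDC45 and the GINS complex, turns loaded MCM rings into active helicases, and the DNA polymerases alpha, delta and epsilon then copy both strands behind them with the clamp PCNA. Many of these genes are activated by E2F transcription factors at the G1/S transition, and p53 is known to lower their transcription through p21 (CDKN1A) and the RB and DREAM repressor complexes.

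With CASM34, replication genes had slightly less RNA than with p53WT, across nearly all steps of the process, but only PRIM2 and RFC5 passed the test singly. Of the 53 genes 2 fell and 0 rose at an adjusted p under 0.05 (quasi-likelihood F test of edgeR, Benjamini-Hochberg adjustment over all genes tested), so 3.77% of them fell. Of all tested genes 1.95% passed, 0.345% falling and 1.61% rising. With DESeq2 only MCM4 fell, and 0 rose. Genes without an adjusted p from DESeq2 included POLE2 and WDHD1, which therefore had no call there. The fitted log2 fold change, CASM34 over p53WT, lay below 0 for 48 of the 53 genes and above 0 for 5, where 50.2% of all tested genes lay below 0. The median log2 fold change was -0.12, a level 7.71% lower, and the range ran from -0.37 (POLE2) to 0.07 (CDT1). The median over all 15965 genes was -0.00055. In 39 of the 53 genes (73.6%) both CASM34 libraries lay below both p53WT libraries in CPM, counts scaled to a common library size, and in none did both lie above, where 23.4% of all tested genes had the first order and 24.5% the second. At an unadjusted edgeR p under 0.05, 24 of the 53 genes (45.3%) were lower and 0 higher, beside 6.81% and 10.3% of all tested genes. These genes were measured in the same 4 libraries and are not independent of each other, so the counts describe the list and are not a test of it.

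The summed TPM (counts divided by gene length and scaled to a common total) of the 53 genes was 3865 and 3768 in the CASM34 libraries and 4076 and 4104 in the p53WT libraries. The groups did not overlap. In TPM both CASM34 libraries lay below both p53WT libraries in 34 of the 53 genes, and above both in 2 (GINS1 and POLE). The share of all tested genes with these orders in TPM was not computed. Per gene, the mean TPM ran from 6.71 (TICRR) to 600.3 (MCM7) in CASM34 and from 6.90 (TICRR) to 636 (MCM7) in p53WT. After MCM7 the most abundant were PCNA, with a mean of 285 TPM in CASM34 and 305 TPM in p53WT, POLD2, with 254 TPM in CASM34 and 251 TPM in p53WT, and MCM4, with 239 TPM in CASM34 and 262 TPM in p53WT. Estimated counts of the 53 genes lay between 294 and 29253 per library. In bulk RNA, fewer cells in S phase and less RNA per cell cannot be told apart.

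**Figure D1:**
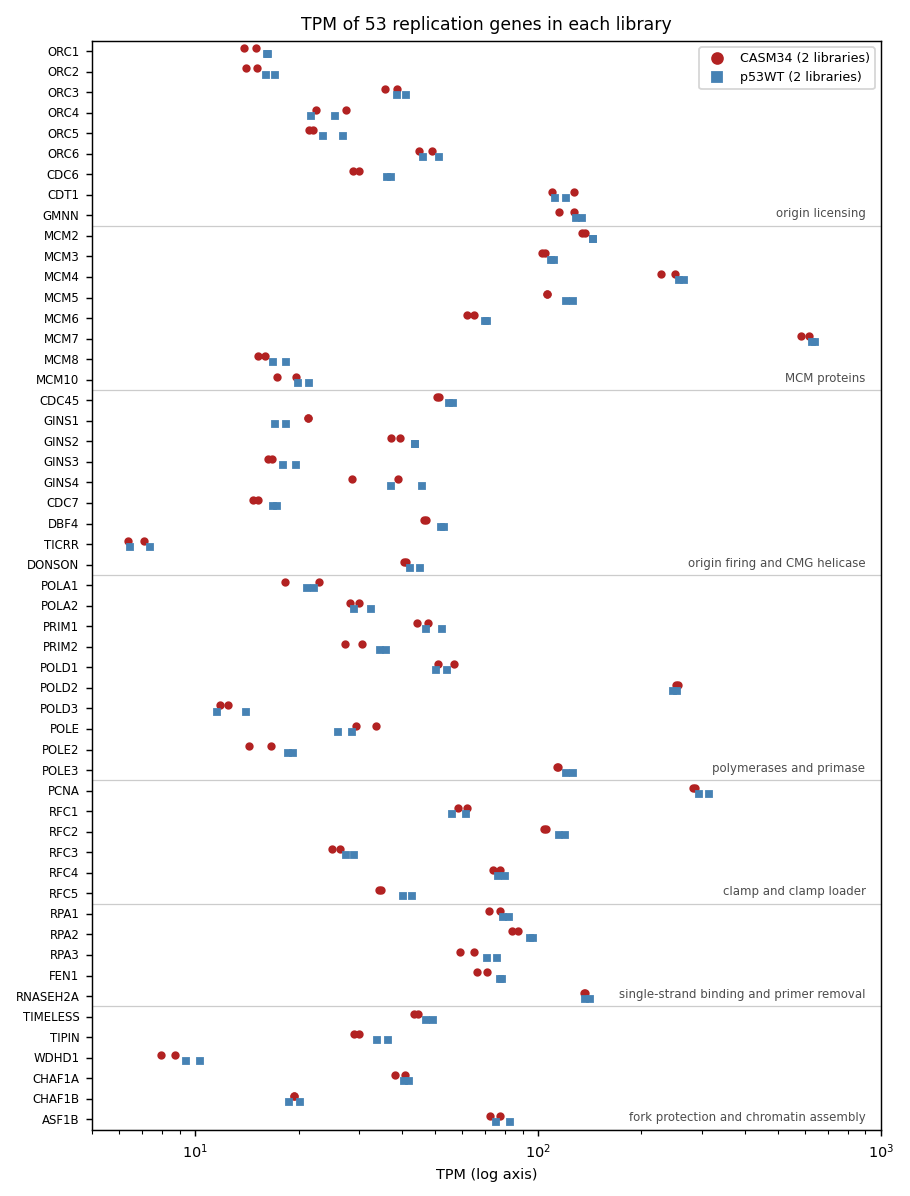
TPM (log axis) of each of the 53 replication genes in each library, CASM34 as circles above p53WT as squares, grouped by role. MCM7 stands highest, near 600.3 TPM in CASM34 and 636 TPM in p53WT, and for most genes the CASM34 circles sit a little to the left of the p53WT squares.

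Libraries of total depth 26906095 and 18086983 estimated counts (CASM34) and 21717726 and 25969760 (p53WT) differed in base composition. A library's log2 level, taken as the deviation from each gene's mean, moved with transcript GC content by 0.0732 and 0.0409 per 10 percentage points in CASM34 and by -0.0574 and -0.0567 in p53WT. The replication genes had a median transcript GC content of 47.1%, beside 49.5% over all tested genes. Mitochondrially encoded mRNAs took 1.71% and 1.37% of counts in CASM34 and 1.35% and 1.03% in p53WT, and 6 RNAs of kinds that mostly end without poly(A), some of them histone mRNAs that can also be polyadenylated, took 0.00723% and 0.00691% in CASM34 and 0.00560% and 0.00502% in p53WT. The part of both in the differences of replication genes was not tested. KRT8, KRT18 and VIM were abundant in all 4 libraries, and SFTPB, PTPRC and CD3E were at 0 counts in all of them. The epithelial and lung markers EPCAM, CDH1, NKX2-1 and NAPSA had at most 12 counts in any library. The leukocyte markers took at most 3.72e-05% of counts in CASM34 and 3.47e-05% in p53WT.

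PRIM2 encodes the large subunit of primase, which makes the RNA primer for every new DNA strand. PRIM2 (ENSG00000146143.19, GRCh38 chromosome 6, 57314805 to 57646849, plus strand, GENCODE 29) had 43.5 and 47.1 CPM in the CASM34 libraries and 54.9 and 53.6 CPM in the p53WT libraries. The groups did not overlap, and the gap between them was larger than the spread within either. PRIM2 fell by 16.8%, a log2 fold change of -0.26 with an SE of 0.06 (edgeR adjusted p = 0.0428). RFC5 encodes a small subunit of replication factor C, the loader that opens the PCNA ring and sets it on DNA. RFC5 (ENSG00000111445.14, chromosome 12, 118013588 to 118033130, plus strand) had 49.7 and 48.1 CPM in the CASM34 libraries and 56.8 and 59.9 CPM in the p53WT libraries. Again the groups stood apart, and RFC5 fell by 16.1%, a log2 fold change of -0.25 with an SE of 0.06 (edgeR adjusted p = 0.0403). RFC5 had fractional counts in 3 libraries, so some of its reads were shared with other gene models, and 5.72% of its exon bases lie opposite exons of WSB2. PRIM2 had whole counts in all 4 libraries. Without p53WT replicate 1 and without p53WT replicate 2, PRIM2 lay at -0.25 and -0.28 (edgeR adjusted p = 0.204 and 0.117) and RFC5 at -0.30 and -0.21 (edgeR adjusted p = 0.0915 and 0.215). Without CASM34 replicate 1, PRIM2 lay at -0.21 (edgeR adjusted p = 0.158) and RFC5 passed. With an offset that takes out how each library trends with GC and length, PRIM2 lay at -0.19 and RFC5 at -0.23 (edgeR adjusted p = 0.163 and 0.101).

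The gene furthest below 0 was POLE2, for the second subunit of DNA polymerase epsilon, which copies the leading strand. POLE2 (ENSG00000100479.14, chromosome 14, 49643555 to 49688422, minus strand) had 14.8 and 16.1 CPM in the CASM34 libraries and 20.3 and 19.5 CPM in the p53WT libraries. The groups did not overlap. The log2 fold change was -0.37 (SE 0.09) and did not pass (edgeR adjusted p = 0.0635). In fits leaving out 1 library the log2 fold change of POLE2 ran from -0.43 to -0.31. Only 4 of the 53 genes differed by more than 0.2 on the log2 scale, namely PRIM2, POLE2, RFC5 and WDHD1.

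**Figure D2:**
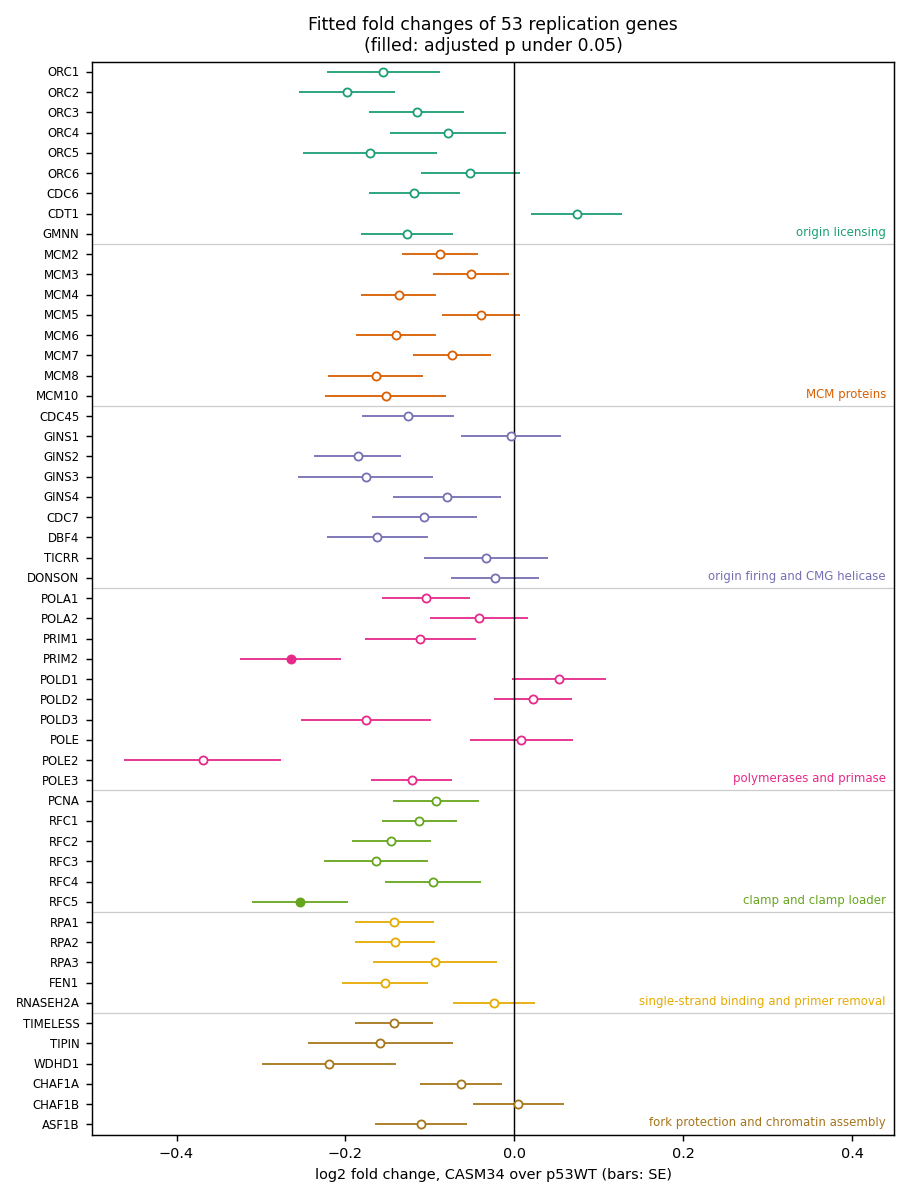
Fitted log2 fold change, CASM34 over p53WT, of the 53 replication genes by role, with bars for the SE; filled points have an adjusted p under 0.05. PRIM2 and RFC5 are filled, POLE2 lies furthest to the left at -0.37, and 48 of the 53 points lie left of 0.

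Windows of 300 bases at the start of PRIM2, RFC5, POLE2 and MCM6 are shown because these genes were among the lowest in CASM34 relative to p53WT or, for MCM6, hold 2 stretches of E2F letters. Each runs from 250 bases before to 50 bases after an annotated start, 5′ to 3′ on the gene's strand, from RefSeq on GRCh38.p14. Capitals mark E2F letters, searched as TTTCCCGC, TTTCGCGC, TTTGCCGC and TTTGGCGC on both strands with overlaps counted. The windows are chr6:57317380-57317679 (PRIM2, plus strand, the downstream of its starts), chr12:118016453-118016752 (RFC5, plus strand), chr14:49688165-49688464 (POLE2, minus strand) and chr2:135876394-135876693 (MCM6, minus strand).
PRIM2: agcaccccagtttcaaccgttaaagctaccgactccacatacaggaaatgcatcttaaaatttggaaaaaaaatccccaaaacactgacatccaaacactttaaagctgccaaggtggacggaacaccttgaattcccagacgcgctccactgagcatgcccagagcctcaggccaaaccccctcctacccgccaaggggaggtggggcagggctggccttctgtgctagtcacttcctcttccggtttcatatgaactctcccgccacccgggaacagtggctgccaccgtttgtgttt
RFC5: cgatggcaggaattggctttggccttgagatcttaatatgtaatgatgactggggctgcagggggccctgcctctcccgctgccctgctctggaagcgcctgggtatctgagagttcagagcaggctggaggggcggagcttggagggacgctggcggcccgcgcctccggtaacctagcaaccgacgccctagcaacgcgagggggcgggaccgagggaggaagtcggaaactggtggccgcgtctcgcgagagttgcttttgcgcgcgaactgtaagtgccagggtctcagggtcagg
POLE2: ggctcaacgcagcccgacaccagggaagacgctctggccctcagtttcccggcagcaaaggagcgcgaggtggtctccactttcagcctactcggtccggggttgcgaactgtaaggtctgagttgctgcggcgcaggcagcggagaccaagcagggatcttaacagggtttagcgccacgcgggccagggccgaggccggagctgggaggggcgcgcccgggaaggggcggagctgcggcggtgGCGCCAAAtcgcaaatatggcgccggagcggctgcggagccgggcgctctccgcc
MCM6: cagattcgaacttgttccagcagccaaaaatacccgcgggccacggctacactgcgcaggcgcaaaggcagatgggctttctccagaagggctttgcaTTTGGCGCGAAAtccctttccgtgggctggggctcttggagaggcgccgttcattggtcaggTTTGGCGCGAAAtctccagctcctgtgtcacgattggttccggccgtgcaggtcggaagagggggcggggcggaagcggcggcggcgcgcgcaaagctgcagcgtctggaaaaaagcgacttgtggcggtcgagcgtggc
The PRIM2 and RFC5 windows hold none of the E2F letters. The POLE2 window holds GCGCCAAA, which reads TTTGGCGC on the other strand, from 5 bases before the start. The MCM6 window holds TTTGGCGC on the coding strand at 152 and at 90 bases before the start, each overlapped by GCGCGAAA, the reverse strand form of TTTCGCGC.

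Windows were held for 46 of the 53 genes. E2F letters were present in a window of 20 of these 46 genes (43.5%), beside 3.99% of 27305 genes with a window. CCAAT, the box read by NF-Y, was present for 28 of the 46 (60.9%), beside 39.7% of all genes. The DREAM complex is known to act on mitotic genes through the CHR letters TTTGAA and TTTAAA. These were present for 6 of the 46 (13.0%), beside 27.9% of all genes. Members and all genes were not matched for the GC content of their windows or for expression. The part of either in these shares was not tested. The 20 genes with E2F letters had a median log2 fold change of -0.11 with 18 below 0, and the 26 genes without them had a median of -0.12 with 23 below 0. PRIM2 and RFC5 are among those without. A match is a string of letters in the window and says nothing of binding, and the absence of a match says nothing of the factor.

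In origin licensing, ORC marks origins, CDC6 and CDT1 bring the MCM ring, and geminin (GMNN) binds CDT1 and blocks a second loading in the same cycle. Of the 9 licensing genes 0 rose, 0 fell and 9 did not pass, 8 lay below 0, and the median log2 fold change was -0.12. At an unadjusted edgeR p under 0.05, 4 were lower, beside 6.81% of all tested genes. ORC2, a core ORC subunit, had 44.6 and 44.9 CPM in CASM34 and 52.1 and 50.6 CPM in p53WT. The groups stood apart, and the log2 fold change was -0.20 with an SE of 0.06 (edgeR adjusted p = 0.0929). GMNN had 85.5 and 92.6 CPM in CASM34 and 93.8 and 100.1 CPM in p53WT, with a log2 fold change of -0.13 (edgeR adjusted p = 0.255). GMNN was the most abundant of the class, with a mean of 121 TPM in CASM34 and 131 TPM in p53WT. Its partner CDT1 was the highest fold change of all 53 genes, with 233 and 210.5 CPM in CASM34 and 207 and 216 CPM in p53WT. Those libraries overlapped, and the log2 fold change of 0.07 with an SE of 0.05 (edgeR adjusted p = 0.530) became -0.19 with the GC and length offset and -0.01 without CASM34 replicate 1. CDT1 is also the member richest in G and C, at 65.2%.

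Among the MCM proteins, MCM2 to MCM7 form the ring of the replicative helicase, MCM8 acts with MCM9 in repair of broken forks, and MCM10 helps to activate the helicase. Of the 8 genes 0 rose, 0 fell and 8 did not pass, all 8 lay below 0, and the range was narrow, from -0.16 to -0.04. At an unadjusted edgeR p under 0.05, 3 were lower, beside 6.81% of all tested genes. The class summed to 1316 and 1250 TPM in CASM34 and to 1387 and 1381 TPM in p53WT. That was more than any other of the 7 classes, and the groups did not overlap. MCM7 had 1095 and 1042 CPM in CASM34 and 1124 and 1126 CPM in p53WT, a log2 fold change of -0.07 (edgeR adjusted p = 0.453). MCM4 had 610.3 and 594 CPM in CASM34 and 665 and 660.3 CPM in p53WT. Its groups did not overlap, and the log2 fold change was -0.14 with an SE of 0.04 (edgeR adjusted p = 0.137; DESeq2 adjusted p = 0.0288). MCM6 had 190.0 and 181 CPM in CASM34 and 201 and 208 CPM in p53WT, also a log2 fold change of -0.14 with an SE of 0.05 (edgeR adjusted p = 0.147). With the GC and length offset MCM2 was the member that passed, at -0.21 with an SE of 0.04 (edgeR adjusted p = 0.0417), against -0.09 without it; MCM2 is named here because of its values. MCM2 had 352 and 339 CPM in CASM34 and 367 and 368 CPM in p53WT. MCM2 and MCM7 had fractional counts in all 4 libraries, so part of their reads was divided among gene models.

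For origin firing, CDC45 and the GINS subunits complete the helicase, CDC7 with DBF4 phosphorylates MCM, TICRR (Treslin) brings CDC45, and DONSON helps to bring GINS. Of the 9 genes 0 rose, 0 fell and 9 did not pass, and all 9 lay below 0, the median being -0.11. Of these 4 were lower at an unadjusted edgeR p under 0.05, beside 6.81% of all tested genes. GINS2 had 72.6 and 77.4 CPM in CASM34 and 84.5 and 85.7 CPM in p53WT. The groups stood apart, and the log2 fold change was -0.19 with an SE of 0.05 (edgeR adjusted p = 0.0847). In fits leaving out 1 library the log2 fold change of GINS2 ran from -0.23 to -0.14. DBF4 had 59.1 and 64.2 CPM in CASM34 and 66.0 and 71.4 CPM in p53WT. Its log2 fold change was -0.16 with an SE of 0.06 (edgeR adjusted p = 0.187). It ran from -0.22 to -0.10 in fits leaving out 1 library. CDC45, the most abundant of the class, had 50.8 and 51.5 TPM in CASM34 and 54.8 and 56.4 TPM in p53WT, with a log2 fold change of -0.13 on counts (edgeR adjusted p = 0.260). GINS1, GINS2, GINS3 and GINS4 stand in one complex, yet their fitted log2 fold changes ran from -0.00 (GINS1) and -0.08 (GINS4) to -0.18 (GINS3) and -0.19 (GINS2), with SEs of 0.06, 0.06, 0.08 and 0.05 in that order. The differences among the subunits were not tested.

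In DNA synthesis, POLA1 and POLA2 with PRIM1 and PRIM2 start each strand, polymerase delta (POLD1 to POLD3) extends the lagging strand, and polymerase epsilon (POLE, POLE2, POLE3) the leading strand. Of the 10 genes 1 fell (PRIM2), 0 rose and 9 did not pass, with 7 below 0. This class held both the lowest value and 3 of the 5 genes above 0. The catalytic subunits POLD1 and POLE lay at 0.05 and 0.01 (edgeR adjusted p = 0.678 and 0.964) and POLD2 at 0.02 (edgeR adjusted p = 0.857). POLD2 had 252 and 256 TPM in CASM34 and 247 and 255 TPM in p53WT. POLD1 and POLD2 had transcript GC contents of 64.8% and 58.8%, while PRIM2 and POLE2 had 38.8% and 39.7%. With the GC and length offset POLD2 lay at -0.09, POLD1 at -0.20 and POLE at -0.09. PRIM2 and POLE2 differed less with that offset than without it, at -0.19 and -0.29. PRIM1, the catalytic partner of PRIM2, had 44.0 and 49.0 CPM in CASM34 and 51.6 and 48.5 CPM in p53WT. Its groups overlapped and its counts were fractional in all 4 libraries. The log2 fold change was -0.11 with an SE of 0.07 (edgeR adjusted p = 0.420).

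At the clamp, PCNA is the sliding clamp, its gene a known p53 target, and RFC1 to RFC5 load it. Of the 6 genes 1 fell (RFC5), 0 rose and 5 did not pass. In all 6 both CASM34 libraries lay below both p53WT libraries in CPM, an order that 23.4% of all tested genes had. In TPM 4 of the 6 had that order, and the groups of RFC1 and RFC4 overlapped. PCNA had 234 and 237 CPM in CASM34 and 239 and 262 CPM in p53WT, a log2 fold change of -0.09 with an SE of 0.05 (edgeR adjusted p = 0.381). The gap between the groups was smaller than the spread between the p53WT libraries. RFC2 had 114 and 113 CPM in CASM34 and 123 and 128 CPM in p53WT, a log2 fold change of -0.15 with an SE of 0.05 (edgeR adjusted p = 0.128). RFC1, RFC3 and RFC4 lay at -0.11, -0.16 and -0.10 (edgeR adjusted p = 0.208, 0.191 and 0.422).

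Behind the helicase, the RPA trimer coats single-stranded DNA, and FEN1 and the RNase H2 subunit RNASEH2A act on the RNA primers. None of the 5 genes passed edgeR, and 0 passed DESeq2. All 5 lay below 0, and the median log2 fold change was -0.14. With edgeR 3 were lower at an unadjusted p under 0.05, beside 6.81% of all tested genes. FEN1 had 102 and 94.8 CPM in CASM34 and 108 and 111 CPM in p53WT. The groups stood apart, and the log2 fold change was -0.15 with an SE of 0.05 (edgeR adjusted p = 0.142). It ran from -0.21 to -0.10 in fits leaving out 1 library. RPA1 had 225 and 217 CPM in CASM34 and 239 and 249 CPM in p53WT, a log2 fold change of -0.14 with an SE of 0.05 (edgeR adjusted p = 0.138), and RPA2 lay at -0.14 too (edgeR adjusted p = 0.147). RNASEH2A, the most abundant of the class, had 137 and 136 TPM in CASM34 and 137 and 142 TPM in p53WT. Its log2 fold change was -0.02 with an SE of 0.05 (edgeR adjusted p = 0.846), turning to 0.02 without p53WT replicate 2, and 30.8% of its exon bases are shared with THSD8 on the same strand.

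At the moving fork, TIMELESS and TIPIN hold the helicase and polymerases together, WDHD1 (AND-1) links the helicase to polymerase alpha, and CHAF1A, CHAF1B and ASF1B place histones on new DNA. Of the 6 genes 0 rose, 0 fell and 6 did not pass, with 5 below 0. At an unadjusted edgeR p under 0.05 2 were lower, beside 6.81% of all tested genes. TIMELESS had 154 and 153 CPM in CASM34 and 173 and 165 CPM in p53WT. The groups did not overlap, and the log2 fold change was -0.14 with an SE of 0.05 (edgeR adjusted p = 0.134). WDHD1 had 30.2 and 27.9 CPM in CASM34 and 36.2 and 31.8 CPM in p53WT, a log2 fold change of -0.22 with an SE of 0.08 (edgeR adjusted p = 0.177). The partners CHAF1A and CHAF1B lay at -0.06 and 0.00 (edgeR adjusted p = 0.549 and 0.977). ASF1B, the most abundant of the class, had 77.3 and 72.4 TPM in CASM34 and 82.8 and 75.2 TPM in p53WT, which overlapped. In CPM the ASF1B groups did not overlap, with 83.2 and 79.9 CPM in CASM34 and 92.0 and 84.5 CPM in p53WT. The log2 fold change was -0.11 with an SE of 0.05 (edgeR adjusted p = 0.326). Once GC and length were offset, ASF1B lay at -0.24 (edgeR adjusted p = 0.0706).

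Fold changes of all genes moved with transcript GC content, and the replication genes were therefore set beside genes of like composition. In bins of 5 percentage points, the median of the replication genes lay below the median of all tested genes in 7 of 7 bins, and 49 of the 53 genes lay below the median of their bin. For GC contents of 40% to 45% the median was -0.11 for 15 replication genes and -0.06 for 3521 tested genes. For 55% to 60% it was -0.05 for 8 replication genes and 0.07 for 2536 tested genes. Every bin held under 20 replication genes, and the bins from 60% to 65% and from 65% to 70% held 1 each, POLD1 and CDT1. Under the GC and length offset the median of the replication genes was -0.10 and 49 of 53 (92.5%) lay below 0, beside a median of -0.02 and 56.2% below 0 over all tested genes. With that offset 23 of the 53 had an unadjusted p under 0.05 and lay lower, beside 8.33% of all tested genes. Only 1 passed (MCM2), beside 0.251% of all tested genes in either direction. Single genes moved both ways under that offset. The difference shrank for GMNN (from -0.13 to -0.05), DBF4 (from -0.16 to -0.09), PCNA (from -0.09 to -0.04) and ORC2 (from -0.20 to -0.15). It grew for MCM7 (from -0.07 to -0.16) and ASF1B (from -0.11 to -0.24). The genes moving each way were not counted, and these were chosen after their values were seen.

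**Figure D3:**
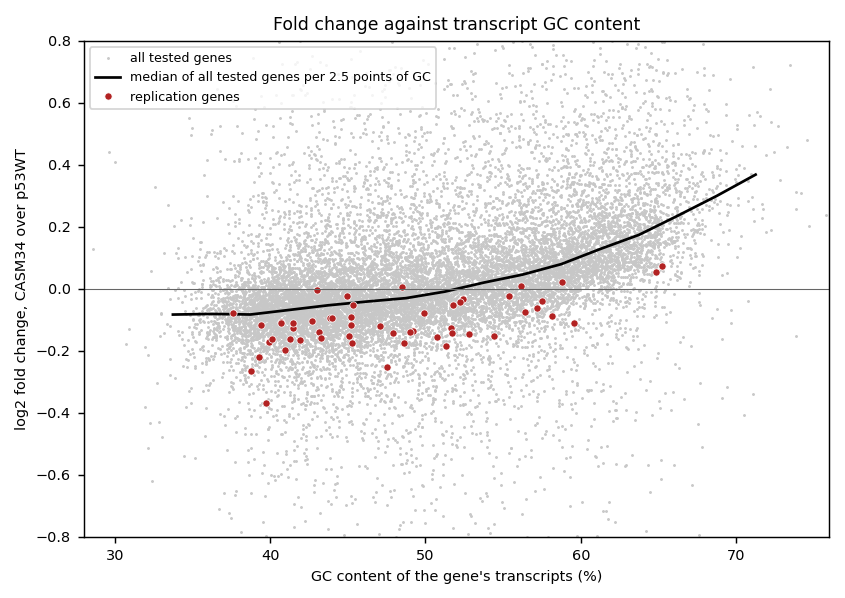
Log2 fold change, CASM34 over p53WT, against the GC content of each gene's transcripts for all tested genes (grey) and the 53 replication genes (red); the line is the median of all tested genes per bin with at least 20 genes, and the vertical axis is limited to 0.8 in either direction. The line climbs with GC content, and nearly all red points lie under it, from the GC-poor PRIM2 and POLE2 to the GC-rich POLD1 and CDT1.

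**Figure D4:**
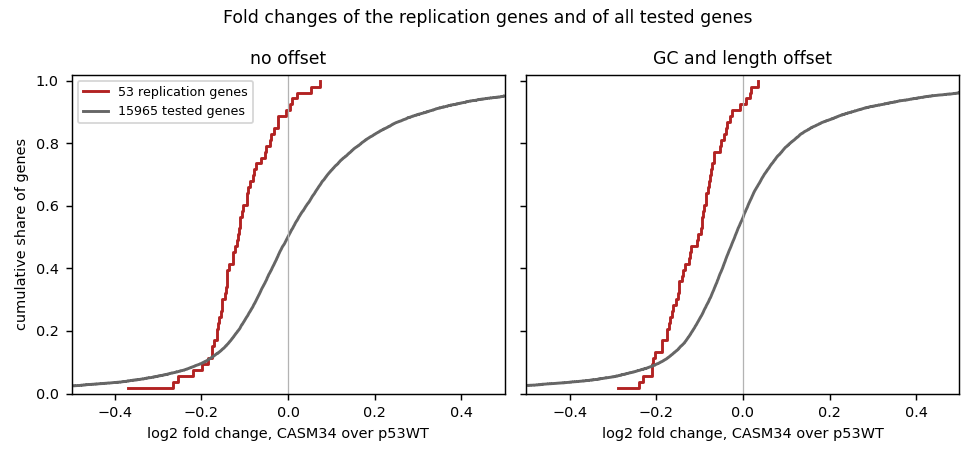
Cumulative share of genes by log2 fold change, CASM34 over p53WT, for the 53 replication genes (red) and 15965 tested genes (grey), without an offset on the left and with the GC and length offset on the right. The red curve crosses its middle at -0.12 on the left and -0.10 on the right, and the grey curve near 0 in both, at -0.00055 and -0.02.

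Further genes of the pathway were taken from 3 lists. Of 24 other origin and fork factors 1 rose, 0 fell and 23 did not pass, with 18 below 0 and a median log2 fold change of -0.09. CHTF18, a subunit of an alternative PCNA loader, had 43.0 and 43.1 CPM in CASM34 and 36.6 and 33.6 CPM in p53WT. It rose by 0.30 on the log2 scale with an SE of 0.07 (edgeR adjusted p = 0.0383), opposite in sign to its partner DSCC1 at -0.17 (edgeR adjusted p = 0.114). CHTF18 has a transcript GC content of 66.6% and DSCC1 one of 42.4%, and with the GC and length offset CHTF18 lay at 0.00 (edgeR adjusted p = 0.994). It did not pass without p53WT replicate 1 or 2 (0.35 and 0.23, edgeR adjusted p = 0.0826 and 0.224). RBBP4, a histone chaperone subunit shared by the CHAF1 complex, had 186 and 185 CPM in CASM34 and 209 and 208 CPM in p53WT, a log2 fold change of -0.17 with an SE of 0.04 (edgeR adjusted p = 0.0697).

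Ribonucleotide reductase supplies the deoxynucleotides for DNA synthesis. RRM2, the small subunit of ribonucleotide reductase made in S phase, had 392 and 369.9 CPM in CASM34 and 434 and 429.8 CPM in p53WT. Its groups stood apart, and the log2 fold change was -0.18 with an SE of 0.05 (edgeR adjusted p = 0.0697; DESeq2 adjusted p = 0.00734). In TPM the groups overlapped, with 384 and 358 TPM in CASM34 and 402 and 382 TPM in p53WT, and with the effective length offset the log2 fold change of RRM2 was -0.07 (edgeR adjusted p = 0.649). RRM2B, the form that p53 induces, lay at 0.02 (edgeR adjusted p = 0.870).

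Of 12 regulators of the G1/S switch 1 rose, 0 fell and 11 did not pass, with 9 below 0. The one that rose was CDKN1A, which encodes p21, an inhibitor of cyclin-dependent kinases that also binds PCNA. CDKN1A had 365 and 373 TPM in CASM34 and 278 and 288 TPM in p53WT, a log2 fold change of 0.38 on counts with an SE of 0.05 (edgeR adjusted p = 0.00274). It was 0.27 once GC and length were offset (edgeR adjusted p = 0.0353). CDKN1A did not pass with the effective length offset (0.39, edgeR adjusted p = 0.140). Nor did it pass in limma on log2(TPM + 1) (0.38, limma adjusted p = 0.459). E2F1 had 128 and 125 CPM in CASM34 and 116 and 118 CPM in p53WT. The log2 fold change of E2F1 was 0.11 with an SE of 0.05 (edgeR adjusted p = 0.222). Its transcripts have a GC content of 62.5%, and all tested genes of 60% to 65% had a median of 0.15. CCNA2, the S phase cyclin, had 126 and 132 CPM in CASM34 and 142 and 142 CPM in p53WT, a log2 fold change of -0.14 with an SE of 0.05 (edgeR adjusted p = 0.147).

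**Figure D5:**
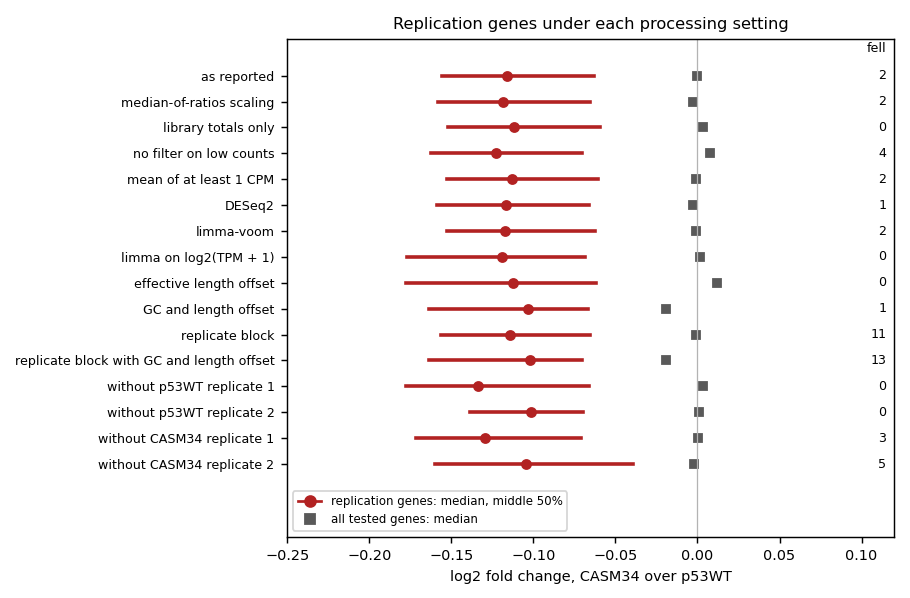
Median (points) and middle 50% (bars) of the log2 fold changes of the 53 replication genes, CASM34 over p53WT, under each processing setting, with the median of all tested genes as squares and the number of replication genes that fell at the right. The median of the replication genes stays between -0.13 and -0.10 in all 15 alternatives, while the number that fell runs from 0 to 13.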

How the data were processed

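Poly(A) RNA of 4 libraries was sequenced. Trim Galore, STAR, RSEM and the build GRCh38 were used, per the submitters' processing notes. The sources used here give no versions, annotation release or strand setting. Per the file headers, the deposited tables hold RSEM's expected count (reads are divided among gene models, which left 8.63% to 9.26% of values in a library fractional at a tolerance of 0.001), the effective length and the TPM of each gene. The authors' TPM values are divided by length and scaled to a fixed total. The deposited other values are the effective lengths in bases.

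Expected counts were rounded and tested with edgeR 4.0.16 in R 4.3.3 (group alone in the model, TMM scaling, common dispersion 0.00193) after filterByExpr at 10 counts. CPM uses the TMM factors. An SE is the size of the log2 fold change over the root of its F value. GC content is that of the GENCODE 29 transcripts of a gene, and 15695 of 15965 tested genes had one. The GC and length offset came from natural splines (5 degrees of freedom each) per library. Symbols were matched by gene ID for 61803 of 61852 IDs.

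Counts differed within groups by more than Poisson error (chi-square per degree of freedom 3.92 in CASM34 and 3.86 in p53WT), so neither group holds identical libraries. No sample was left out. Of the 53 genes 16 had a fractional count in some library and 25 share exon bases with another gene. An exact permutation test of 2 against 2 libraries cannot go below p = 0.333, so none is given. Genes with values in the text are members that passed, the 2 with the smallest p and the most abundant of each of 7 classes, the extremes, and in the further lists those that passed and the 2 with the smallest p; others are named for context and were chosen after their values were seen. The members, lists and alternatives were chosen with earlier results of these data known. The scripts were tested on simulated data. Alternatives were median-of-ratios scaling, library totals, no filter, a mean of at least 1 CPM, DESeq2 1.42.0, limma 3.58.1 (voom, and log2(TPM + 1)), an effective length offset, the GC and length offset, a replicate block and leaving out each library. The level of the expressed p53 mRNA, and some results of the further lists, are not reported here.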

Additional observations from a re-analysis of the deposited data

How the results depend on the processing

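In all 15 alternatives the median log2 fold change of the replication genes lay between -0.13 and -0.10, 45 to 50 of the 53 lay below 0, and 0 rose. The number that fell, 2 as reported, was 0 with library totals only, in limma on log2(TPM + 1) and with the effective length offset, 1 in DESeq2 (MCM4) and with the GC and length offset (MCM2), and 4 with no filter on low counts. Leaving out 1 library gave 0 to 5. It was 0 without either p53WT library, 3 without CASM34 replicate 1 and 5 without CASM34 replicate 2.

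Over all tested genes 55 fell and 257 rose as reported. With library totals only 27 fell, with no filter 235 fell and 542 rose, in DESeq2 144 rose, in limma on log2(TPM + 1) 0 fell and 0 rose, with the effective length offset 0 fell and 5 rose, and with the GC and length offset 18 fell and 22 rose. Leaving out 1 library gave 14 to 269 that fell and 95 to 650 that rose. In limma on log2(TPM + 1) 7 of the 53 replication genes were lower and 1 higher at an unadjusted p under 0.05. With the effective length offset the numbers were 12 and 2. The shares of all tested genes at that threshold were not computed for these settings, so the counts cannot be set against them.

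With the replicate block 11 replication genes fell, and 361 of all genes (2.26%) fell and 798 rose. With the replicate block and the GC and length offset 13 replication genes fell, and 266 of all genes (1.67%) fell and 166 rose. Deviations of same-numbered libraries correlated at 0.0335, and the numbers were not taken to pair the samples. Counting noise in each gene lowers such a correlation, so it does not exclude a pairing.

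The sign turned for POLD2 with the GC and length offset (-0.092), with the block and that offset (-0.091) and among fits leaving out 1 library (-0.021 to 0.063, below 0 without p53WT replicate 1). It turned for CDT1 with the GC and length offset (-0.19), with the block and that offset (-0.19, where CDT1 passed as falling, edgeR adjusted p = 0.00948) and among fits leaving out 1 library (-0.0053 to 0.14, below 0 without CASM34 replicate 1). It turned for RNASEH2A among those fits (0.016 to -0.066, above 0 without p53WT replicate 2). Of 405 values of the named genes under the alternatives, 333 kept direction and call, 33 lost a call, 32 gained one and 7 turned sign. A missing adjusted p, as for POLE2 and WDHD1 in DESeq2, was counted as not passing. The cause of the changes was not tested. Where 1 library is left out, the lone library of its group is assumed to vary like the other group.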

Other observations

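TPM and CPM differed in the order of the groups or in the size of the difference for several of the 53 genes. Both CASM34 libraries lay below both p53WT libraries in 34 of them in TPM and in 39 in CPM. The genes described here are ones whose effective length, which RSEM weights by isoform abundance, differed between the groups. These genes were chosen after their values were seen. GINS1 had 42.4 and 41.8 CPM in CASM34 and 43.0 and 41.5 CPM in p53WT, which overlapped, but 21.3 and 21.4 TPM in CASM34 and 18.3 and 17.1 TPM in p53WT. Its effective length was 2344 and 2318 bases in CASM34 and 2814 and 2863 bases in p53WT. With the effective length offset its log2 fold change was 0.28 (SE 0.08, edgeR adjusted p = 0.302). POLE had 33.8 and 29.3 TPM in CASM34 and 28.6 and 26.1 TPM in p53WT, with effective lengths of 4233 and 4322 bases in CASM34 and 4969 and 4948 bases in p53WT.

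For MCM5 and CDC6 the effective length was longer in CASM34. MCM5 had 106 and 106 TPM in CASM34 and 126 and 120.3 TPM in p53WT, while its CPM values overlapped, and its effective length was 2677 and 2682 bases in CASM34 and 2284 and 2479 bases in p53WT. CDC6 was lower in CASM34 on both scales, with 58.5 and 56.4 CPM in CASM34 and 61.5 and 63.3 CPM in p53WT. It had 30.0 and 28.9 TPM in CASM34 and 36.2 and 37.3 TPM in p53WT, with effective lengths of 2302 and 2314 bases in CASM34 and 2039 and 2003 bases in p53WT. Gene-level tables do not hold the isoforms, so their shares were not tested.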
